A study of Danio rerio with 8 samples.

Results

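Zebrafish long non-coding RNA (lncRNA) loci with alternative isoforms are loci of the deposited catalogue at which more than 1 transcript model is listed, so that the models can be compared exon by exon. A locus was taken when at least 2 models remained after RefSeq accessions had been set aside and at least 1 of these had 2 or more exons. This gave 224 of the 1014 loci, with 594 of the 1425 models. The study sequenced ribosome footprints, the RNA fragments that ribosomes shield from nuclease, from whole wild-type embryos of the TL/AB strains. Its 8 stages were embryos of 2 to 4 cells and of 256 cells, the 1K cell stage, the Dome, Shield and Bud stages, and embryos 28 hours and 5 days after fertilization. Each stage had 1 library. No values per library entered here, so the levels of the isoforms at these stages were not analysed, and every result below is a count or a distance in the catalogue on the Zv9 build. The counts are a full listing of the catalogue and not a sample of it, so as counts of the catalogue they carry no sampling error. Isoforms that the catalogue lacks are not seen in them. No difference between groups of loci was tested.

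A gene makes isoforms in several ways. Transcription can begin at another promoter, the RNA can be cut and polyadenylated at another place, and the splicing machinery can leave out an exon, keep an intron or choose a neighbouring splice site. The donor is the splice site at the upstream end of an intron and the acceptor the site at its downstream end. In lncRNAs such choices can add or remove sequence without a reading frame to keep, and a locus may release a host RNA from which microRNAs are cut. Background knowledge of this kind was not tested here.

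The loci carried few models each. Of the 224 loci, 143 had 2 models, 46 had 3, 20 had 4 and 15 had 5 or more, with a mean of 2.65 models. They lay on all 25 chromosomes, from 4 loci on chromosomes 1 and 10 to 14 on chromosomes 5 and 16, with 4 on unplaced sequences and 119 on the plus strand. Models whose names begin with Zv9_, from Pauli et al. with other developmental transcripts under the same prefix, were the sole source at 142 loci. Models whose names begin with linc-, from Ulitsky et al., were the sole source at 60, and both kinds met at 22. Of all loci that Zv9_ models described, 27.1% were in this group (164 of 606), against 19.1% of those that linc- models described (82 of 429). Some of these loci met the rule only with a model of the other source. Taken on the models of 1 source alone, it gave 153 loci for Zv9_ models and 63 for linc- models. A linc- name follows that of a nearby coding gene and says nothing of what the RNA does.

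Ends differed more often than any other feature compared. The last base differed between models at 174 loci (77.7%), and at 79 (35.3%) the last exons shared no base. By the same measure the first base differed at 156 loci (69.6%). Counting only differences of more than 100 nt left 140 loci for ends and 90 for starts. More than 1 start identifier (tss_id), the label that groups nearby starts, was given at 89 loci (39.7%), and at 67 (29.9%) the first exons shared no base. Pairs of a Zv9_ model and a linc- model are included in these counts. Models of the same source alone gave differing ends at 162 loci and separate last exons at 76. They gave more than 1 tss_id at 79 loci and separate first exons at 60. Inside the transcripts, an intron of 1 model lay wholly in an exon of another at 41 loci (18.3%). An exon was skipped between the same donor and acceptor at 39 loci (17.4%). Acceptors of introns with the same donor differed at 29 loci (12.9%), and donors of introns with the same acceptor at 20 (8.93%). At least 1 of these 4 internal kinds was present at 111 loci, 95 of them with a single kind, 14 with a pair and 2 with 3 kinds. No locus had all 4. Loci with 4 or more models held an internal difference at 29 of 35 (82.9%) and loci with 2 models at 56 of 143 (39.2%), although more models allow more pairs to differ.

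**Figure D1:**
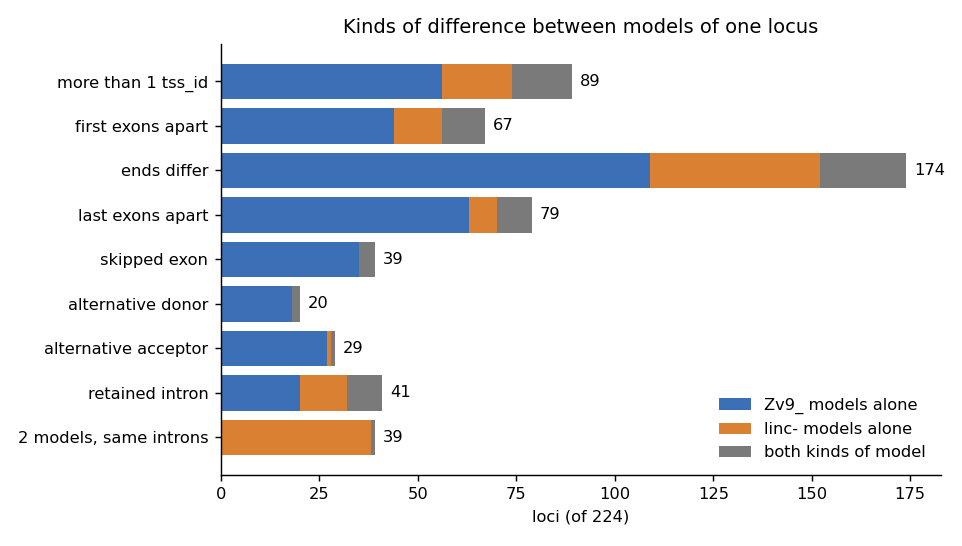
Number of loci, of 224, with each kind of difference between their models; the bar colours give the source of the models at a locus, and a locus can stand in several bars. Differing ends reach 174 loci, skipped exons appear with Zv9_ models and not at loci of linc- models alone, and 38 of the 39 loci with the same introns in a pair of models are loci of linc- models alone.

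The 2 sets of models, told apart by name prefix, recorded different kinds of isoform. At the 60 loci described by linc- models alone, 38 (63.3%) had a pair of models with the same introns, which then differed in their starts or ends. At the 142 loci described by Zv9_ models alone there were 0 such loci. The reverse held inside the transcripts. A skipped exon needs a model of 3 or more exons and another with an intron, which 43 linc- loci and 120 Zv9_ loci had. It was found at 0 of the 43 and at 35 of the 120 (29.2%). Alternative donors were found at 0 of 51 linc- loci with more than 1 multi-exon model and at 18 of 142 Zv9_ loci, and alternative acceptors at 1 and at 27. An intron common to every multi-exon model was present at 50 of the 51 linc- loci and at 85 of the 142 Zv9_ loci (59.9%). At loci with exactly 2 models the split was similar, with a skipped exon at 14 of 89 Zv9_ loci (15.7%) and 0 of 43 linc- loci, and the same introns in both models at 0 and at 22 (51.2%). Retained introns did not follow this split when single-exon models were counted, with 12 of 60 linc- loci (20.0%) and 20 of 142 Zv9_ loci (14.1%). Single-exon models stood at 10 of the 60 linc- loci and at 0 of the 142 Zv9_ loci. At 12 of all 41 loci with a retained intron, single-exon models alone held it, and none of these 12 was a Zv9_ locus. Without single-exon models the 20 Zv9_ loci therefore all remained, and every locus lost had a linc- model. How many linc- loci then remained was not counted, so the order of the shares without single-exon models is not given here. How each source merged or discarded near-identical models was not examined, and its part in these counts was not tested.

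The starts were compared first. At 68 loci every model began at the same base, and at 67 the starts differed by 1 to 102 nt under a single tss_id. Pairs of models with different identifiers began at least 97 nt apart, with a median of 2134.5 nt over 200 pairs. Pairs with the same identifier began at most 151 nt apart, in 437 pairs. The identifier therefore tells apart starts that are roughly 100 nt or more from each other. Over the 89 loci with more than 1 identifier, the widest distance between starts had a median of 2072 nt (quartiles 445 and 9267 nt), and 20 loci had starts more than 10000 nt apart. Of the 67 loci with first exons that shared no base, 34 had the downstream first exon inside an intron of the other model. At 39 it overlapped a later exon of that model, and at 4 it lay outside the other model. A locus can fall under more than 1 of these. At 23 of the 67 the separate first exons were spliced to the same acceptor.

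The widest separation of starts, 176096 nt, was at XLOC_009782 on chromosome 23 (17828712 to 18009916, minus strand). Its models Zv9_00052809 and Zv9_00052811 began at 18009916 and 18009839, while Zv9_00052808 began at 17833820. The upstream models shared an exon of 145 nt and one of 76 nt, and the downstream model shared with Zv9_00052809 a last exon of 847 nt. Without Zv9_00052809 the exons of the other models would not overlap, so by exon overlap this model alone joins them. Whether loci were merged by that measure is not given. XLOC_007850 on chromosome 20 (48234180 to 48383993, plus strand) had starts 113679 nt apart. Its 3 models all ran into the same last exon of 3446 nt, and a middle exon of 230 nt was skipped in Zv9_00046100.

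**Figure D2:**
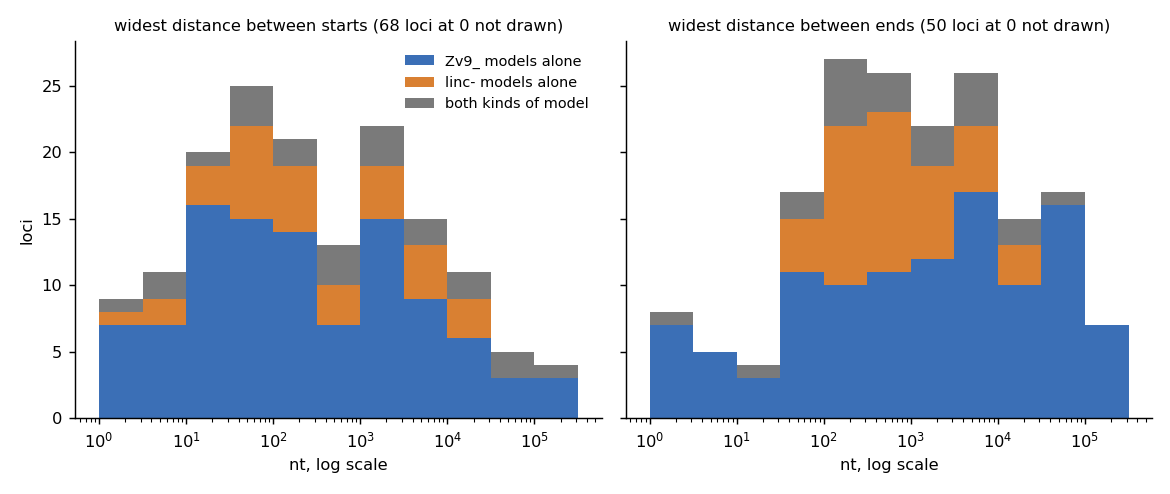
Widest distance between the starts (left) and between the ends (right) of the models at a locus, in nt on a log axis, with loci coloured by source; loci whose models begin or end at 1 base are not drawn. End distances reach 211894 nt at Zv9_ loci, and the smallest widest distance drawn for the ends of a linc- locus is 56 nt.

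The ends were compared in the same way. All models ended at the same base at 50 loci. At the other 174 the widest distance had a median of 1030.5 nt (quartiles 149 and 8379.25 nt) and a maximum of 211894 nt. On the same basis, any difference in the first base, the starts of 156 loci were a median of 187.5 nt apart (quartiles 27 and 2283.25 nt). At Zv9_ loci the widest distances between ends ran from 1 nt with a median of 1814 nt over 109 loci. At linc- loci they ran from 56 to 13304 nt with a median of 497 nt over 43 loci. Of 39 loci with ends more than 10000 nt apart, 33 were Zv9_ loci, 3 linc- loci and 3 loci with both. The shape of the change also varied, counted here over all sources together. At 94 loci, models with the same last acceptor ended at different bases of that last exon, a median of 149 nt apart. At the 79 loci with separate last exons, the upstream one lay inside an intron of the other model at 48 and overlapped an earlier exon of it at 42. At 34 of the 79 the separate last exons were spliced from the same donor.

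The widest ends were at XLOC_011310 on chromosome 3 (3658173 to 3873435, minus strand), where Zv9_00006785 ended in a second exon of 136 nt and Zv9_00006772 went on over 211894 nt to a pair of exons of 44 and 79 nt. Each model held an intron of 2266 nt, from 3870203 to 3872468 in the former and from 3658252 to 3660517 in the latter. Whether these stretches are copies of each other was not tested. XLOC_005954 on chromosome 18 (23467380 to 23617603, minus strand) had ends 146593 nt apart. There Zv9_00042605 read on from the shared middle exon to an end exon of 884 nt, and Zv9_00042604 spliced from that exon's donor to a last exon of 492 nt. XLOC_003056 on chromosome 13 (26776691 to 26927690, minus strand) had 3 ends over 136735 nt, all reached from the same pair of leading exons of 219 and 150 nt.

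The most complete series of last exons was at XLOC_005953 on chromosome 18 (23233049 to 23379386, minus strand), with 7 Zv9_ models. Every model shared the donor of its first exon at 23378954 and the whole of the next exon of 135 nt. After these the 7 models ended at 7 places between 23341819 and 23233049. The model Zv9_00042602 ran through the donor of the third exon, which became a last exon of 2193 nt. Zv9_00042603, Zv9_00042601, Zv9_00042600 and Zv9_00042599 spliced on from that donor to last exons of 457, 51, 578 and 327 nt, of which that of 457 nt lay within the span of the 2193 nt exon. Zv9_00042598 shared the acceptor of the 327 nt exon but spliced out of it after 43 nt to a last exon of 808 nt. Zv9_00042597 reached the farthest, with a last exon of 605 nt.

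Among linc- models, the leading example of shared introns with different ends was XLOC_004620, which has more models than any other locus. It lies on chromosome 16 (46618761 to 46671347, plus strand) and is named after zfpm2a, which encodes a cofactor of GATA transcription factors. All 9 models had 11 exons and the same 10 introns. They began at 46618761 (6 models) or 46618769 (3 models), and each ended at its own base of the last exon. That exon measured from 344 to 4580 nt. The first 6 ends came as 3 close pairs, 46667111 with 46667199, 46667964 with 46668053, and 46668818 with 46668906. The members of a pair were 88, 89 and 88 nt apart, and from each pair to the next the ends moved by 853 or 854 nt. The 6 models with these ends were the 6 that began at 46618761. The remaining ends, at 46670052, 46671212 and 46671347, were 1160 and 135 nt apart and did not continue the series. Whether the last exon holds a repeated sequence of that length was not tested. In all, 32 loci had the same introns in every model, all of them linc- loci. At 29 of these the ends differed, with a widest distance of 56 to 5039 nt and a median of 325 nt, and at 25 every model had the same start. The sox4a-named locus XLOC_006268 on chromosome 19 (29288190 to 29309083) is another such locus. Its last exon was 258 nt in linc-sox4a_2 and 2838 nt in linc-sox4a_1.

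**Figure D3:**
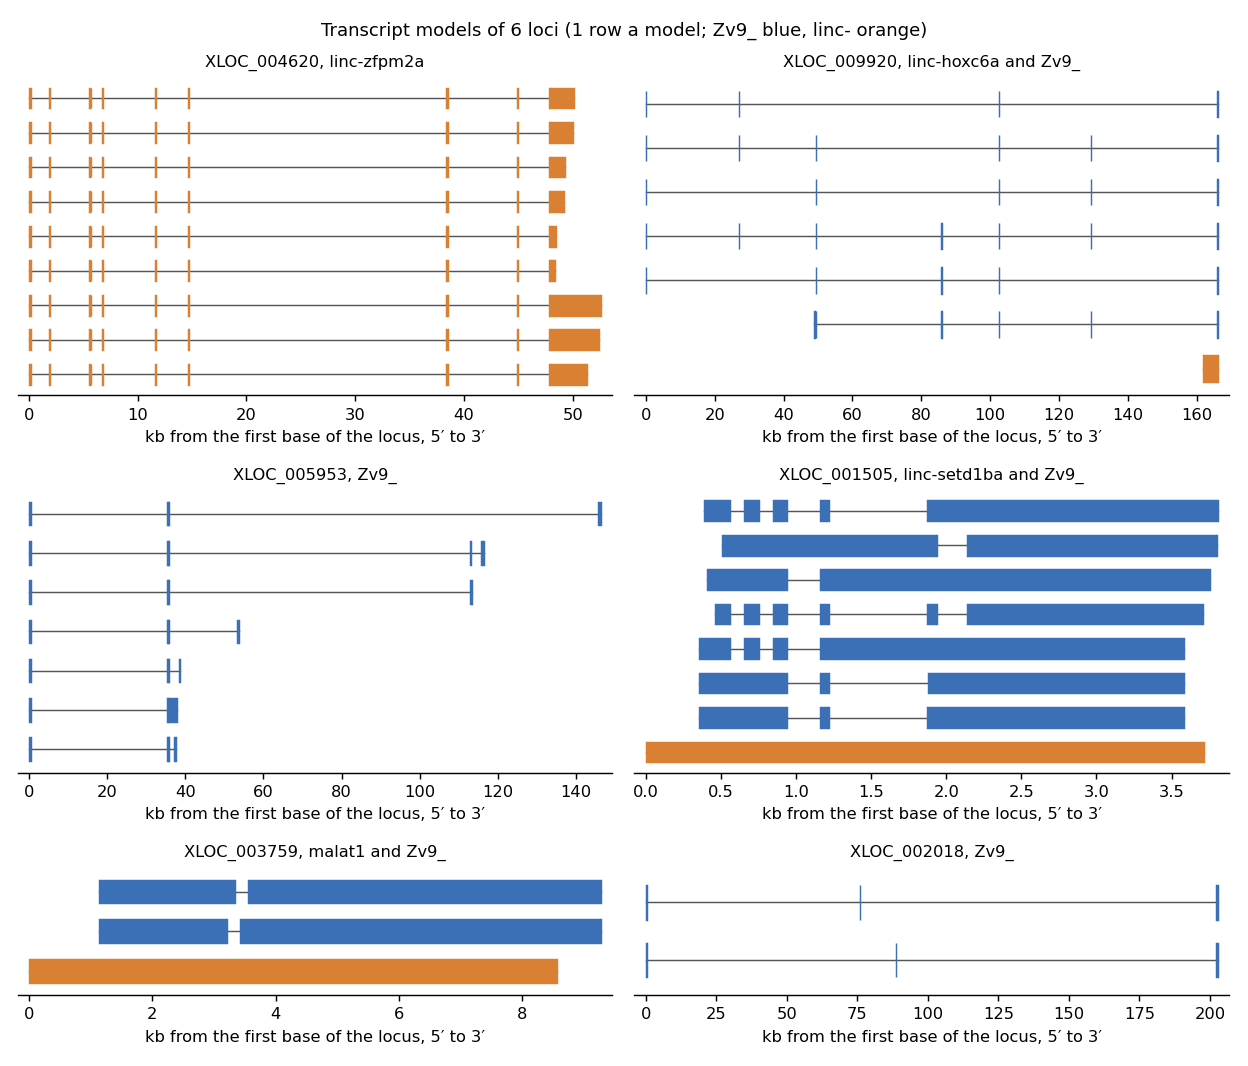
Exons (boxes) and introns (lines) of every model at 6 loci, drawn from the first base of each locus in the direction of transcription, in kb; each row is a model, Zv9_ models are blue and linc- models orange. The 9 zfpm2a-named models differ in the last exon, the Zv9_ models at the hoxc6a-named locus in which middle exons they hold, and the 7 models of XLOC_005953 in where they end.

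Skipped exons numbered 50 distinct events at 39 loci, 44 with 1 exon left out and 6 with 2 exons left out together. The skipped exons were 43 to 406 nt long with a median of 96 nt over 51 exons. Internal exons present in every multi-exon model had a median of 105 nt over 209 exons (quartiles 75 and 149 nt). The length was a multiple of 3 for 41.2% of the skipped exons and 42.6% of those common exons. The common exons came from loci of every source, whereas no skipped exon lay at a locus of linc- models alone. Neither comparison was split by source. The intron that replaced the exon measured from 421 to 89492 nt, with a median of 11792.5 nt. Models were counted on either side of an event only if they used both its donor and its acceptor. On that count 35 events had as many models with the exon as without it, 9 had more with it and 6 fewer. Models with other splice sites beside the exon were left out, so this is not a split over all models of a locus. At loci with 2 models, which held 15 of the events, the numbers are equal by construction.

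The locus with the most skipped exons was XLOC_009920 on chromosome 23 (36162678 to 36328681, minus strand). It carries the name of hoxc6a, a homeobox gene of the hoxc cluster that helps to pattern the body axis. Of its 6 Zv9_ models, 5 began in the same exon of 159 nt and all ended in the same last exon of 191 or 193 nt. Between these lay 5 exons, of which only that of 147 nt stood in all 6 models. The exon of 93 nt stood in 5 models, that of 141 nt in 4, and those of 53 and 149 nt in 3 each. These choices gave 5 skipped events, including 1 in which the exons of 93 and 149 nt were left out together. The exons of 53 and 93 nt also replaced each other between Zv9_00053301, which held the former, and Zv9_00053303, which held the latter. They were not exclusive, since 2 other models held both, joined by an intron of 22256 nt. The sixth model, Zv9_00053306, began in an exon of 155 nt inside an intron of the others. The linc-hoxc6a_1 model at this locus was a single exon of 4336 nt that ended at the same base as Zv9_00053306. This was the only end that both kinds of model shared at any locus.

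Other skipped exons stood at the limits of the size range. The longest skipped stretch, 509 nt in 2 exons, was at XLOC_014520 on chromosome 7 (22954072 to 23006917, minus strand), where Zv9_00018276 left out exons of 103 and 406 nt. Its last exon in that model was 8 nt. First or last exons shorter than 20 nt occurred in 11 of the 570 multi-exon models, 10 of them Zv9_ models. XLOC_011738 on chromosome 4 (5894519 to 5897519) skipped an exon of 320 nt. XLOC_002298 on chromosome 12 (38752362 to 38809316) is named after the myelin protein gene pmp22b. Its Zv9_00028932 left out the pair of exons that Zv9_00028931 held, and Zv9_00028930 left out the 76 nt exon alone. The first exon of Zv9_00028932 was only 16 nt long. The shortest skipped exon, 43 nt, was at XLOC_015999 on chromosome 9 (30685535 to 30695218, minus strand), a host of microRNA precursors. Both of its models held mir16c and mir15a-2 in the same last exon, so the choice of the 43 nt exon left the precursors untouched.

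A pair of exons used in place of each other was found at 1 further locus, XLOC_002018 on chromosome 11 (minus strand). Its models Zv9_00027738 and Zv9_00027739 shared the donor of their first exon and the acceptor of their last. Between them stood an exon from 37452061 to 37452166 in the former and one from 37439087 to 37439192 in the latter. Both exons were 106 nt long. Their sequences were not compared here.

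Distances between alternative splice sites covered a wide range. The 35 pairs of alternative acceptors were 3 to 779 nt apart with a median of 15 nt. The most frequent distance was 3 nt, with 9 pairs (25.7%), followed by 4 nt with 3 pairs, and 14 pairs were less than 10 nt apart. The 23 pairs of alternative donors were 4 to 353 nt apart with a median of 31 nt. Here the most frequent distance was 4 nt, with 4 pairs (17.4%), and 6 pairs were less than 10 nt apart. Acceptors 3 nt apart and donors 4 nt apart are well-known forms of tandem splice sites in vertebrate genes, where the splicing machinery can use either copy of a short repeated signal. The letters at these sites were not read here.

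**Figure D4:**
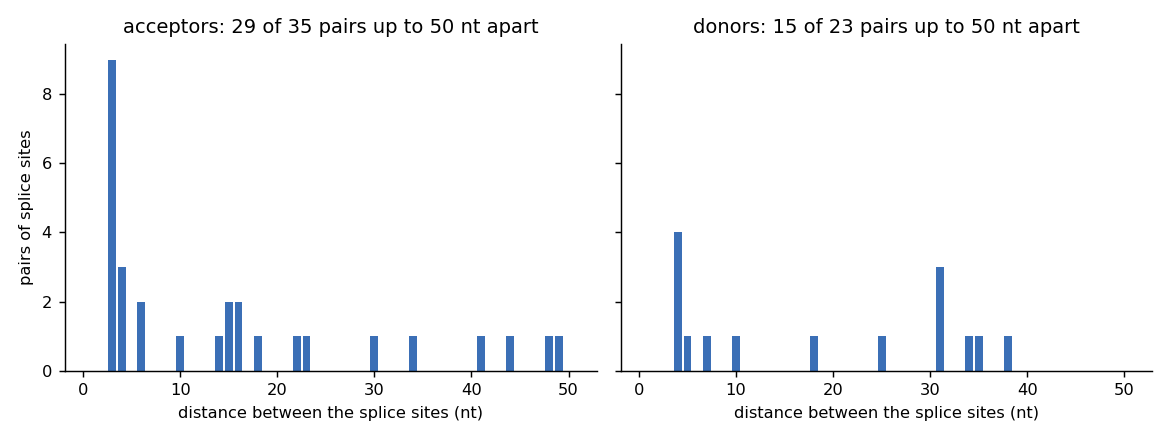
Number of pairs of alternative acceptors (left) and donors (right) at each distance up to 50 nt; a pair is counted once per locus. The tallest bars stand at 3 nt for acceptors (9 pairs) and at 4 nt for donors (4 pairs), and the 3 donor pairs at 31 nt lie at 2 loci of chromosome 4.

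The 3 nt acceptor shifts fell in 8 loci, 7 with Zv9_ models and 1 with linc- models, and in 4 of them the models were alike at every other exon boundary. One of these 4 was XLOC_010716 on chromosome 25 (8733461 to 8759394, minus strand), host of mir9-3, a microRNA of the nervous system. Its middle exon began at 8755112 in Zv9_00056653 and at 8755115 in Zv9_00056652, while the precursor lay in the first exon, which was the same in both. The glrx3-named locus XLOC_002570 on chromosome 12 (44311410 to 44318829, minus strand) had models of 3531 and 3534 nt that differed only in an acceptor at 44314940 or 44314943. It was the only locus of linc- models alone with an alternative acceptor. XLOC_000323 on chromosome 1 (8026958 to 8042023) and XLOC_005423 on chromosome 17 moved the acceptor of the last exon, at 8039222 and 8039225 in the former and at 25017285 and 25017282 in the latter. XLOC_003220 on chromosome 14 had 4 models and a pair of such shifts. The acceptor at 21685 or 21688 occurred with either choice of the rest, but the acceptor at 22437 always came with the start at 21174 and that at 22434 with the start at 21181.

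The 4 nt donor shifts were found at XLOC_006529 on chromosome 19, XLOC_007146 on chromosome 2, XLOC_010600 on chromosome 25 and XLOC_011783 on chromosome 4, all described by Zv9_ models. In XLOC_011783 the exon that ends at 10836045 or 10836049 was spliced to the same acceptor in all 3 models. The largest shifts changed much of a short RNA. XLOC_012474 on chromosome 5 (28594288 to 28598473) had models of 223 and 576 nt that differed by a donor shift of 353 nt alone. At XLOC_002904 on chromosome 13 (53367087 to 53374987) a donor moved by 193 nt, in models of 322 and 634 nt. The acceptor shift of 779 nt at XLOC_003753 on chromosome 14 (47731758 to 47734880) set an exon of 1128 nt in Zv9_00034219 against one of 360 nt in Zv9_00034218. The introns of this locus measured 781, 783 and 1562 nt, and its model Zv9_00034220 ended in an exon of 12 nt. Whether the locus holds a repeated sequence was not tested. At that locus, too, the exons of the other models overlapped only through Zv9_00034219.

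Retained introns numbered 68 at 41 loci, with introns that differed in a single splice site counted apart. They were 58 to 4052 nt long with a median of 207 nt (quartiles 102 and 441 nt), while the other 825 introns of these loci had a median of 2797 nt (quartiles 611 and 9570 nt). A short intron fits inside an exon more easily than a long one, so the difference in length partly follows from the definition. The exon that held the intron was a last exon for 28 introns, a first exon for 21, the whole of a single-exon model for 26 and an internal exon for 1, with some introns counted under more than 1. At 12 loci single-exon models alone held them, which left 29 loci with a retained intron in a spliced model. A stricter count asked that the exon with the intron begin and end exactly where the spliced exons did, which gave 8 loci. The shortest, 58 nt, was at XLOC_006062 on chromosome 18 (49733943 to 49734581, minus strand). There Zv9_00042938 had an exon from 49734228 to 49734581, and Zv9_00042939 spliced out the intron from 49734373 to 49734430 between the same outer ends.

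The longest retained introns were held by linc- models of a single exon. At XLOC_013879 on chromosome 6 (41017493 to 41022312, minus strand), named after the splicing factor gene srsf3a, linc-srsf3a_1 was a single exon of 4820 nt. Within that stretch linc-srsf3a_2 joined exons of 160 and 341 nt across an intron of 4052 nt. The models linc-ctsz and linc-npepl1 at XLOC_013917 and the linc-prr14 models at XLOC_011516 gave introns of 3293 and 2505 nt. Most retained introns, 6, were at XLOC_001505 on chromosome 10 (43348034 to 43351841, minus strand), with 8 models, named after setd1ba, which encodes a histone methyltransferase. Its Zv9_ models had from 2 to 6 exons and used 6 distinct introns, of which those of 653 and 657 nt shared a donor. Zv9_00025744 spliced out 5 introns and Zv9_00025742 and Zv9_00025743 each spliced out 1. The single-exon linc-setd1ba_1 of 3714 nt covered them all. The Zv9_00025746 and Zv9_00025747 models differed by a 4 nt acceptor shift alone.

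The malat1 locus, XLOC_003759 on chromosome 14 (48565580 to 48574855, minus strand), showed a related arrangement. Its mammalian counterpart is known as an abundant RNA of the nucleus. The linc- model was a single exon of 8571 nt, and the Zv9_ models were 7936 and 7938 nt long with 1 short intron each. These introns, 206 nt from 48571441 to 48571646 and 208 nt from 48571310 to 48571517, overlapped but shared neither donor nor acceptor. Both lay wholly inside the linc- exon. The Zv9_ models began 1132 nt downstream of the linc- model and ended 705 nt beyond it. The loci of cyrano and megamind, other well-known zebrafish lncRNAs, had 1 model each and are not in the group.

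XLOC_007833 on chromosome 20 (46342258 to 46418546, plus strand), with 6 Zv9_ models, combined several kinds. An exon of 67 nt stood in 3 of the 6 models and one of 114 nt in 1. A donor moved by 7 nt, so that another exon was 150 or 157 nt long. In 2 models the exon that begins at 46363258 was the last, with 494 or 1087 nt, and in the other 4 it was spliced after 218 nt. A total of 3 internal kinds met at XLOC_006529 and XLOC_006603, both on chromosome 19 with 5 Zv9_ models each. XLOC_006603 had 2 skipped exons, each 55 nt long, 3 donors spread over 83 nt and 5 retained introns. Of these introns, those of 177, 167 and 94 nt shared an acceptor and differed in the donor.

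At the 22 loci with both kinds of model, the Zv9_ and linc- models seldom gave the same structure. At 12 of them the linc- models were single exons. At the other 10 both sources had introns, 26 in the Zv9_ models and 22 in the linc- models. Of these 10 introns were the same, or 38.5% of the former and 45.5% of the latter, at 7 loci. A start was common to both sources at 1 locus and an end at 1. The nearest starts of the sources were a median of 170 nt apart and the nearest ends 186 nt. At XLOC_000713 on chromosome 1 (16072209 to 16103157), named after the cadherin gene fat1, a linc- model of 5 exons and a Zv9_ model of 4 shared 2 introns and differed by an exon of 105 nt that the latter skipped. At XLOC_012051 on chromosome 4 (5294995 to 5328832, minus strand), linc-si:dkey-14d8.21_1 joined, by an intron of 31560 nt, groups of models whose exons do not overlap without it. At XLOC_010197, named after adarb2 of the RNA editing enzyme family, the linc- model was 5509 nt and the Zv9_ model 328 nt. That ratio of 16.8 was the highest within a locus, against a median of 1.39 over the 224 loci.

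Names of developmental regulators were present at 5 of the 82 loci with a linc- name (6.10%), against 17 of 429 (3.96%) in the whole catalogue, by a list of 27 name stems. Beside zfpm2a, sox4a and hoxc6a these were meis1, whose product is a partner of Hox proteins, at XLOC_002640, and pou3f3b, a transcription factor gene of the nervous system, at XLOC_013753. In both of these the locus held 1 model of each source.

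Loci with several models were set beside the 681 multi-exon loci with 1 model, of which 366 had 2 exons and 315 had more. The mean over its models stood for a locus. The median spliced length was 1211 nt (quartiles 815 and 1956 nt), against 656.5 nt for loci with 2 exons and 1201 nt for loci with more. The median span was 8983.5 bp, against 3935.5 and 11659 bp. The median intron was 3339 bp, against 2400 and 2280.5 bp. These pooled values did not hold alike in both sources. Within Zv9_ models the medians were 3 exons and 1019 nt at loci with several models and 2 exons and 671.5 nt at loci with 1. The Zv9_ spans were 14040 and 6382 bp and the Zv9_ introns 4185 and 3625 bp. Within linc- models the medians were 3.5 exons and 1930 nt, against 4 exons and 1477 nt. The linc- span went the other way from the Zv9_ span, with 6828 against 8496 bp, and the linc- introns were close, with 1742 and 1702.5 bp. Loci with 1 model had to have at least 2 exons, whereas 10 of the 60 linc- loci with several models include a single-exon model, which lowers their exon number by construction. Such a model can also be the longest of its locus, as at XLOC_013879, which raises the mean length there. Its part in the linc- lengths was not tested. The linc- length turned with the model chosen: the shortest model of each locus gave 1134 nt, below the 1477 nt of loci with 1 model. Over both sources the shortest model gave 834 nt, below the 936 nt of all 681 loci with 1 model. The quartiles overlapped in all of the comparisons given by the mean over models.

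**Figure D5:**
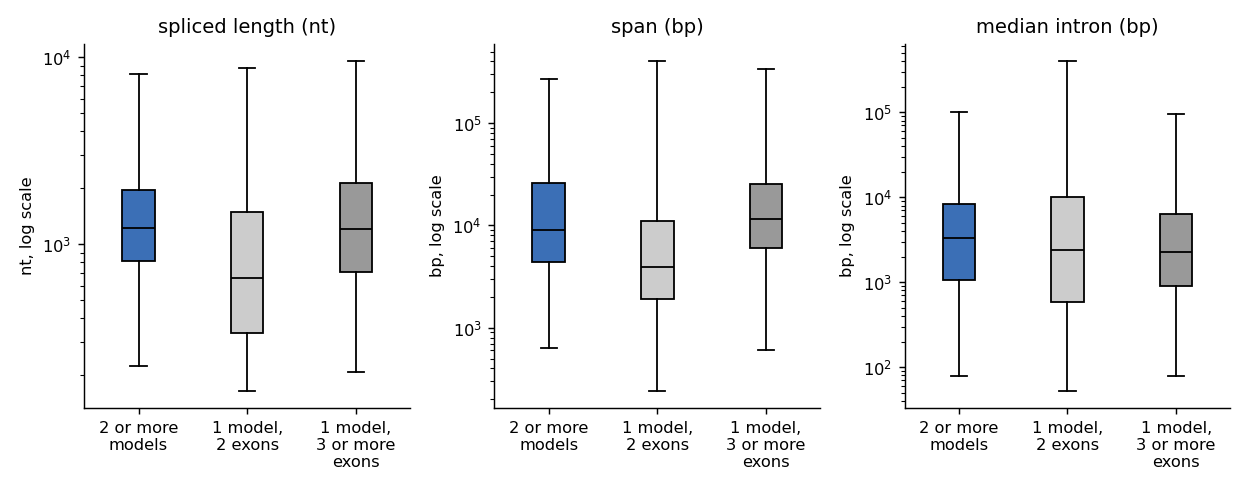
Spliced length, span and median intron of loci with 2 or more models (224), loci with 1 model of 2 exons (366) and loci with 1 model of more exons (315), on log axes; boxes give quartiles and median, whiskers the whole range. The median intron is 3339 bp at loci with several models and 2400 and 2280.5 bp at the others.

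The mouse catalogue of embryonic stem cell lncRNAs (mm9 build), taken by the same rule, gave 51 of 167 loci with 177 models. Ends differed at 35 of the 51 (68.6%) and more than 1 tss_id was given at 16 (31.4%). Skipped exons were found at 13 (25.5%), alternative donors at 19 (37.3%), alternative acceptors at 12 (23.5%) and retained introns at 3 (5.88%). Acceptors 3 nt apart made up 1 of 14 pairs there. The catalogues come from other samples and other annotation methods, so species and method cannot be told apart.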

How the data were processed

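Ribosome footprints were sequenced from zebrafish embryos at 8 stages with 1 library each. Bowtie2, TopHat2 and bedtools, and the build Zv9 (danRer7), are listed per the submitters' processing notes, without versions. The values analysed are the exon coordinates the authors deposited, counted from 1, in a table that combines models of Ulitsky et al. (linc-) and Pauli et al. (Zv9_, with other developmental transcripts under the same prefix) with RefSeq transcripts, per the authors' deposited description. The tool that merged models into loci is not given. No library, depth or expression value entered, and the number of per-sample columns left unused was 0.

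Every pair of models of a locus (637 pairs) was compared after exons had been put in the order of transcription. Each distinct difference was counted once per locus by its coordinates. Alternative donors and acceptors also required that the exons beside them overlap. The comparison was tested on made-up models, 200 pairs for each of 8 planted kinds, of which all were found. Each pair carried a single planted change, and a retained intron was planted by joining whole neighbouring exons. Single-exon models, exchanged exons and several changes together were not planted, so the check does not cover them. The loci named follow a rule: extremes of each measure, loci with most models, loci with both sources or RefSeq models, known lncRNAs and hox names. XLOC_002018, XLOC_002250, XLOC_002640, XLOC_003220, XLOC_005423, XLOC_005797, XLOC_006268, XLOC_006603, XLOC_006727, XLOC_010197, XLOC_011718, XLOC_011783 and XLOC_013753 were chosen after their values were seen. Members, lists and rule were chosen with earlier results of these data known. MicroRNA names came from RefSeq (GRCz12tu, names only). Sequences were not used here. Python 3.11.15, numpy 2.4.6 and matplotlib 3.10.9 were used.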

Additional observations from a re-analysis of the deposited data

How the results depend on the processing

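Of 56 alternative values, 52 kept within 1.5 times of the count in the report or within the interquartile range of the median. The other 4 moved. Linc- models taken alone gave 63 loci. Any difference in the first base gave 156 loci with alternative starts, against 89 by tss_id. Acceptors at least 10 nt apart were found at 17 loci, against 29. The strict form of the retained intron gave 8 loci, against 41. Counting RefSeq models as isoforms gave 238 loci, and collapsing models with the same introns gave 192. Comparing models of the same source alone left retained introns at 34 loci. Taking the shortest model of a locus put the median spliced length at 834 nt, below the 936 nt of loci with 1 model, and that of linc- loci at 1134 nt, below 1477 nt. No paired analysis was possible because no library carries values and each stage has 1 library. Shares rest on the models that each source kept, and differences in the number of exons limit which kinds a locus can show. The letters at splice sites, planned as a result, were not read here, since no genome of the build was used.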

Other observations

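The 3 donor pairs that were 31 nt apart all lay on chromosome 4. At XLOC_012051 such a pair occurred at 5297184 and 5297215 and again at 5328630 and 5328661. The introns were 899 and 930 nt at the former and 924 and 955 nt at the latter. At XLOC_011718, named linc-loc556392 and lying from 4837088 to 4839799 on the plus strand, the donors at 4837280 and 4837311 gave introns of 1003 and 972 nt. The exon after these introns was 382 nt in the linc- models of XLOC_012051 and 381 nt in the linc- models of XLOC_011718. Whether the stretches are copies of each other was not tested.

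XLOC_006727 on chromosome 19 (47706862 to 47709567, minus strand) was the single locus whose introns differed outside every kind counted. Zv9_00045003 held an exon of 12 nt between introns of 489 nt each. Zv9_00045002 spliced over both with an intron of 978 nt and went on 12 nt earlier, at 47707742 where the other model's next exon began at 47707730.

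Loci whose models were joined by exon overlap through 1 model alone numbered 5 of the 81 with 3 or more models: XLOC_002250, XLOC_003753, XLOC_005797, XLOC_009782 and XLOC_012051. The joining model was a linc- model at 2 of them and a Zv9_ model at 3.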
